A study of Homo sapiens with 24 samples.

Results

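DNA repair and recombination genes were followed in Ewing sarcoma cells exposed to pladienolide B (PlaB), a small molecule that binds the SF3B1-containing complex of the spliceosome. The set holds 44 genes listed by symbol, from homologous recombination, the Fanconi anaemia pathway, break sensing, end joining, base excision, mismatch repair and nucleotide excision. Probes on the chip carried the symbol of 40 of them, and the other 4 were not analysed here. For 33 genes at least 1 probe was detected well enough to be tested, against 10882 genes tested in all. The study used 4 human Ewing sarcoma lines, SKNMC, TC32, TC71 and RDES, each grown in culture and exposed for 24 h to 5 nM PlaB or to 0.1% DMSO as vehicle. Each of the 8 groups had 3 arrays, 24 in all, hybridised with labelled cRNA from total RNA. The labels do not say whether the 3 samples of a group came from separate cultures, so the p-values measure the spread between these samples, which may be technical. The treatment description calls the controls untreated, while the sample labels call them DMSO vehicle.

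Cells mend broken or altered DNA by several routes. Double-strand breaks are found by the MRE11, RAD50 and NBN complex and signalled by the kinases ATM and ATR to CHEK2 and CHEK1, then joined directly by the Ku and DNA-PK proteins or copied from the sister chromatid by homologous recombination, in which BRCA1, PALB2 and the recombinase paralogues act. The Fanconi anaemia proteins clear crosslinks between the strands, and excision pathways remove damaged or mispaired bases from one strand. Many recombination genes are transcribed mostly in S and G2 phase. Ewing sarcoma cells are known as a tumour type in which DNA damage signalling and sensitivity to PARP inhibitors have been studied.

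A level below is a normalized log2 probe intensity, and a change is the PlaB level minus the vehicle level on that log2 scale, with its standard error (SE). A call is said below to be lost under an alternative when its adjusted p was 0.05 or more there. A gene was read from its brightest tested probe, and levels of different probes are not compared. A change was called when limma's p-value, adjusted by the Benjamini-Hochberg method over all tested probes, was under 0.05. The arrays detected 13821 to 18736 probes each. Vehicle arrays detected at least 16363 and PlaB arrays at most 16997, and the part of this difference in the results was not tested. Of 6 genes marking Ewing sarcoma cells, CD99, NKX2-2, CCND1, PRKCB and STEAP1 were detected on all 24 arrays and LIPI on 9. Among 10 markers of blood, epithelial and endothelial cells, CDH5 and VWF were detected on 0 arrays, and PTPRC, CD3E and CDH1 on at most 1. CD14 was detected on 22 arrays and rose by 0.91 ± 0.07 in the mean of the lines. In bulk RNA, fewer cells of a type and less RNA per cell cannot be told apart.

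Most called repair genes fell. In the mean of the 4 lines, 21 of the 33 tested genes fell and 6 rose, where 37.9% of all tested genes fell and 32.2% rose. The median change of the 33 genes was -0.27, beside -0.03 over all tested genes. In SKNMC 17 genes fell and 9 rose (31.3% and 26.3% of all tested genes), and in TC32 15 fell and 5 rose (23.8% and 21.6%). In TC71 14 fell and 6 rose (25.2% and 22.9%), and in RDES 20 fell and 4 rose (22.5% and 21.4%). The medians of the 33 genes were -0.36 in SKNMC, -0.23 in TC32, -0.29 in TC71 and -0.39 in RDES, against -0.04, -0.02, -0.02 and -0.00 over all tested genes. Of the 33, 26 were detected on all 24 arrays by the probe used. LIG3 was the 1 gene with a group, TC71 with PlaB, in which no array detected that probe. A second LIG3 probe was detected on 3 arrays of that group.

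The split between rises and falls depended on the scaling. Centring each array on its median, in place of quantile normalization, shifted the median of all tested genes by -0.14 in the mean of the lines, and gave 24 falls and 3 rises. By line the same scaling gave 20 falls and 2 rises in SKNMC, 24 and 1 in TC32, 22 and 2 in TC71, and 22 and 3 in RDES. It shifted the median of all tested genes by -0.17, -0.2, -0.1 and -0.07 in these lines. Centring on the probes detected on all arrays shifted all genes the other way, by 0.14, and gave 21 falls and 8 rises in the mean. The shares of all tested genes called under either centring were not counted.

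Called falls in all 4 lines were found for 8 genes on their brightest probes: RAD51AP1, BRCA1, NBN, CHEK2, PRKDC, XRCC1, ERCC1 and ERCC2. A dimmer probe of CHEK2 was not called in TC71 (-0.15) or RDES (-0.37), and one of BRCA1 was not in TC32 (-0.28). Of the dimmer PRKDC probes in TC32, one was not called (-0.21) and another was (-0.77). Of all tested genes, 10.1% were called lower in all 4 lines. CHEK1 and XRCC6 rose in all 4 lines, and 10.0% of all tested genes were called higher in all 4. The changes of the 33 genes ran from -2.25 for RAD51AP1 in RDES to 1.55 for EXO1 in SKNMC. Leaving out single arrays gave 6 to 9 genes called lower in all 4 lines. Median centring, which lowered all genes, gave 16, and the share of all tested genes under it was not counted. CHEK1 was called in every alternative tried, and XRCC6 was not. LIG4, the ligase of end joining, was the 1 tested gene called in no line.

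**Figure D1:**
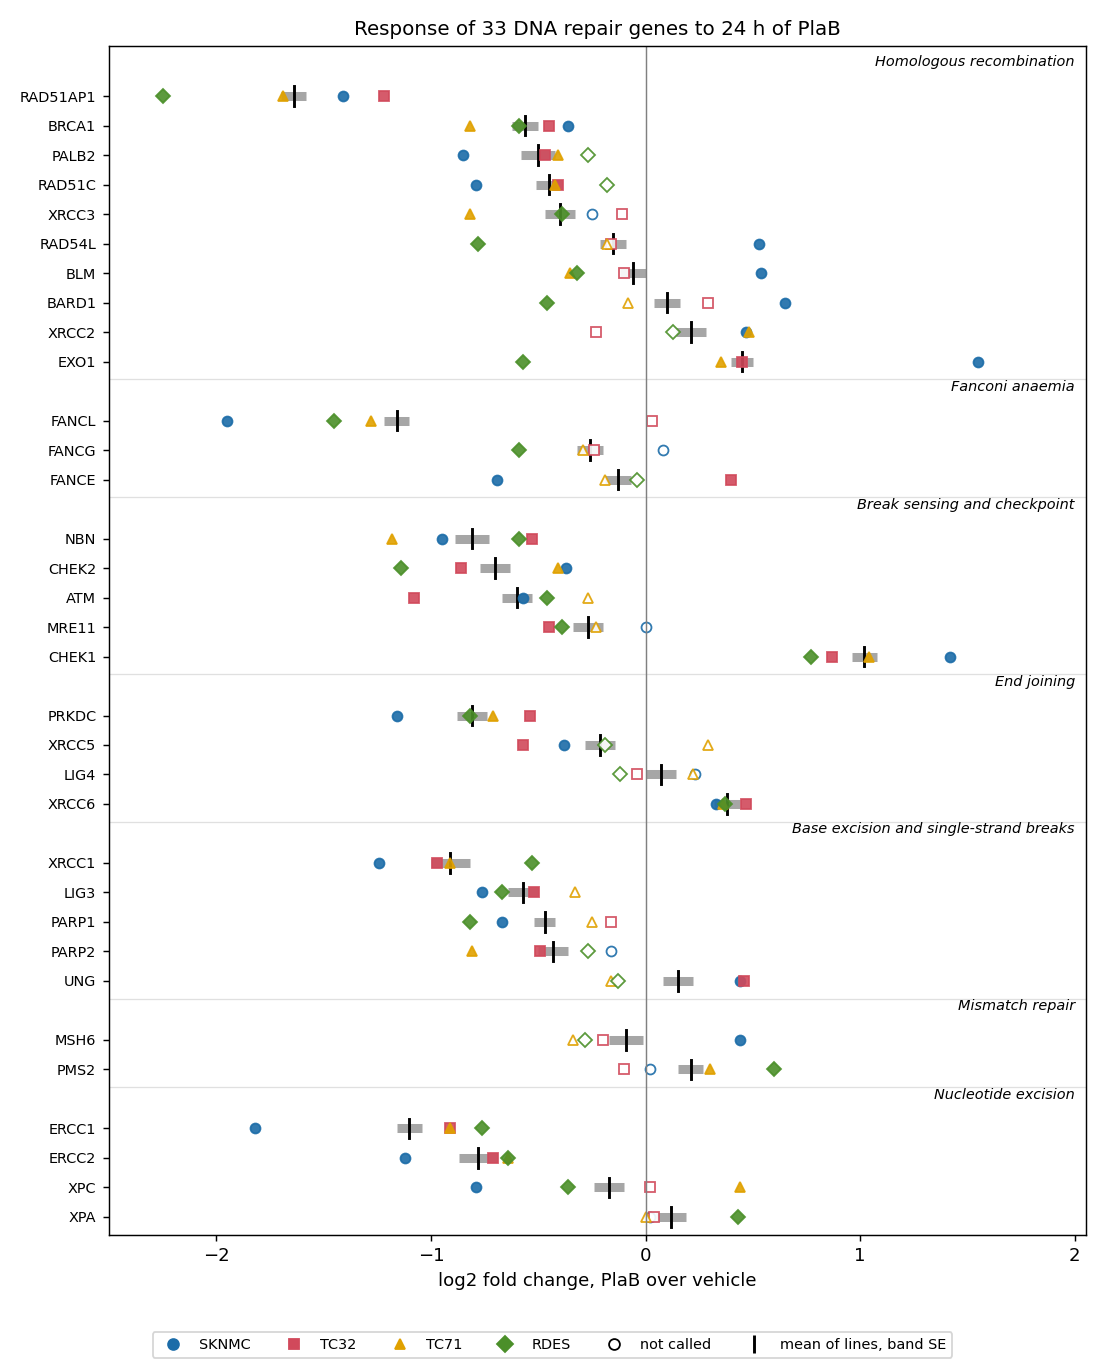
Change of each of the 33 tested repair genes with PlaB, grouped by pathway. The horizontal axis is the log2 fold change of PlaB over vehicle (n = 3 arrays per group), filled symbols are called changes in a line, open symbols are changes not called, and the black tick with its grey band is the mean of the 4 lines with its SE. RAD51AP1, FANCL, ERCC1 and most break-sensing and excision genes sit left of 0, CHEK1 sits right of 0 in every line, and EXO1 spans both sides.

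The 4 genes with the largest called change in the mean were RAD51AP1, FANCL, ERCC1 and CHEK1, and the 250 bases before their annotated starts are shown because they are the sequences upstream of the 3 largest falls and the largest rise. They were read from RefSeq promoters of build GRCh38.p14, each 5′ to 3′ on the gene's own strand, with capitals marking matches to CCAAT on either strand.
RAD51AP1, chr12:4538640-4538889, + strand: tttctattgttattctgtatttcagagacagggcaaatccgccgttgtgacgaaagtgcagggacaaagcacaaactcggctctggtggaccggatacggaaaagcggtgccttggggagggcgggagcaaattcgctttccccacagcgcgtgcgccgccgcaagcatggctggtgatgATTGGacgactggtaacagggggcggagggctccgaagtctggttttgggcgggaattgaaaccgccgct
FANCL, chr2:58241326-58241575, - strand: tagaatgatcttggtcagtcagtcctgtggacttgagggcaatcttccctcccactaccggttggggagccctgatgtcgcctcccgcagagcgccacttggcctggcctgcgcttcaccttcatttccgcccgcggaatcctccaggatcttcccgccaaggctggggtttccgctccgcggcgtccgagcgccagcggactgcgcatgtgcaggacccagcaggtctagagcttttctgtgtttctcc
ERCC1, chr19:45423529-45423778, - strand: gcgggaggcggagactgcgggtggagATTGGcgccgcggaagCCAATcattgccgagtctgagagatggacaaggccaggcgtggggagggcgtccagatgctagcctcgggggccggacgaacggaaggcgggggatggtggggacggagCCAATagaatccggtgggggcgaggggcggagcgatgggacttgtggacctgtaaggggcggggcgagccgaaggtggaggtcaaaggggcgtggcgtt
CHEK1, chr11:125626106-125626355, + strand: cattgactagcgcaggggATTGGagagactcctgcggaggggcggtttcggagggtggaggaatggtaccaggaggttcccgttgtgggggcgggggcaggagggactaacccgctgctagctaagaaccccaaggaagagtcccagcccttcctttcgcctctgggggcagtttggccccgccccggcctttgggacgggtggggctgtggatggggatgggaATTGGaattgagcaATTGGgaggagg
The run upstream of RAD51AP1 held 1 CCAAT match, those of ERCC1 and CHEK1 held 3 each, and that of FANCL held 0. CCAAT is the core letters of the box bound by NF-Y. The motif search used windows of 300 bases, 250 before and 50 after the start, which were on hand for 30 of the 33 tested genes. PRKDC, NBN and XRCC5 had no entry. CCAAT, on either strand, was found in 17 of the 30 windows (56.7%) and in 34.6% of 35116 RefSeq promoter windows. The 4 exact E2F-type words TTTCCCGC, TTTCGCGC, TTTGCCGC and TTTGGCGC were found in 5 of 30 windows (16.7%), those of XRCC2, XRCC6, UNG, PMS2 and XPC, and in 3.31% of all windows. The cell cycle homology element TTTGAA was found in 2 of 30 windows (6.67%), and in 15.2% of all. None of these motifs contains another. The windows of all promoters were not limited to genes tested here, so these shares come from unlike sets and were not tested against each other. These matches describe letters in fixed windows, and binding was not measured.

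Among homologous recombination genes, 10 were tested: 6 fell and 2 rose in the mean of the lines, with a median of -0.27. Of all tested genes 37.9% fell and 32.2% rose in the mean. RAD51AP1, which stimulates strand pairing by the recombinase, showed the largest fall of the tested members, -1.64 ± 0.06 in the mean (3.12-fold lower, limma adjusted p = 2e-19). RAD51AP1 levels in SKNMC were 7.26, 7.25 and 7.17 with vehicle and 5.65, 6.06 and 5.75 with PlaB. In TC32 the RAD51AP1 levels were 7.29, 7.51 and 7.13 with vehicle and 6.13, 6.10 and 6.05 with PlaB. Every PlaB array of both lines lay under every vehicle array of its line. TC71 arrays gave 6.35, 6.69 and 6.29 with vehicle and 4.77, 4.71 and 4.77 with PlaB. RDES arrays gave 7.71, 7.79 and 7.49 with vehicle and 5.17, 5.44 and 5.63 with PlaB. Groups did not overlap in any line, and the fall was largest in RDES, at -2.25 ± 0.13, and smallest in TC32, at -1.22 ± 0.13. The RDES fall differed from that of TC32 by 1.03 ± 0.18 (adjusted p = 0.00029).

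BRCA1, a ubiquitin ligase subunit and scaffold of recombination, fell less, with changes of -0.56 ± 0.06 in the mean and -0.36 to -0.82 by line. Its second probe gave -0.38 in the mean, also called. The SKNMC call of BRCA1 missed the threshold without vehicle replicate 3 (-0.24, adjusted p = 0.15) and without PlaB replicate 2 (-0.31, adjusted p = 0.07). PALB2, the partner that links BRCA1 to the strand exchange machinery, changed by -0.50 ± 0.08 in the mean and most in SKNMC, at -0.85 ± 0.17. Its RDES change was -0.27 ± 0.17 and was not called. The TC32 and TC71 calls of PALB2 were lost without TC32 vehicle replicates 2 or 3 or PlaB replicate 2 (adjusted p up to 0.25), and without any TC71 vehicle array or PlaB replicates 1 or 2 (adjusted p up to 0.14). Among the recombinase paralogues, RAD51C and XRCC3, which work as a pair, both fell, with changes of -0.45 ± 0.06 and -0.40 ± 0.07 in the mean. XRCC2, of another paralogue complex, rose by 0.21 ± 0.07, a sign that turned under median centring (-0.03). XRCC2 rose in SKNMC and TC71, by 0.47 and 0.48, while its TC32 value was -0.23 ± 0.14. XRCC3 was called in TC71 (-0.82 ± 0.14) and in RDES (-0.39 ± 0.14), the latter lost without RDES vehicle replicates 2 or 3 or PlaB replicates 1 or 3 (adjusted p up to 0.17). The SKNMC rise of XRCC2 was lost without SKNMC PlaB replicate 2 (0.32, adjusted p = 0.073).

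EXO1, the exonuclease that resects DNA ends and also acts in mismatch repair, gave the widest spread between lines of the tested members. EXO1 levels in SKNMC were 7.56, 7.52 and 7.47 with vehicle and 8.96, 9.10 and 9.15 with PlaB. EXO1 in RDES moved the other way, from 7.71, 7.68 and 7.47 with vehicle to 7.10, 7.07 and 6.98 with PlaB. The groups did not overlap in either line, so the largest rise of any tested member and a called fall belonged to one gene. TC32 levels of EXO1 were 7.36, 7.35 and 7.29 with vehicle and 7.68, 7.85 and 7.84 with PlaB. TC71 levels were 7.24, 7.29 and 7.05 with vehicle and 7.31, 7.67 and 7.65 with PlaB. By line the changes were 1.55 ± 0.11, 0.45 ± 0.11, 0.35 ± 0.11 and -0.57 ± 0.11 in SKNMC, TC32, TC71 and RDES, and the SKNMC and RDES responses differed by 2.12 ± 0.15 (limma adjusted p = 6.4e-11). A second EXO1 probe changed by 0.88 in SKNMC and by -0.54 in RDES, both called. The smaller TC71 rise of EXO1 was lost without TC71 vehicle replicate 3 or PlaB replicates 2 or 3 (0.28 to 0.3, adjusted p up to 0.062) and under median centring, as was that of TC32 (0.15 and 0.09).

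BARD1, RAD54L and BLM likewise rose in SKNMC and fell in RDES. BARD1, the ubiquitin ligase partner of BRCA1, had SKNMC levels of 7.05, 6.91 and 7.31 with vehicle and 7.78, 7.61 and 7.83 with PlaB. Its RDES levels were 6.70, 6.97 and 6.79 with vehicle and 6.23, 6.30 and 6.55 with PlaB. Both lines separated their groups, in opposite directions, with changes of 0.65 ± 0.12 and -0.46 ± 0.12. In TC32, BARD1 read 6.74, 6.99 and 6.68 with vehicle and 7.04, 7.10 and 7.15 with PlaB. In TC71 it read 6.50, 6.61 and 6.83 with vehicle and 6.49, 6.51 and 6.71 with PlaB. Neither change was called (0.29 ± 0.12 and -0.08 ± 0.12), and BRCA1 itself was called lower in all 4 lines.

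RAD54L, a motor protein that helps the recombination filament invade DNA, had SKNMC levels of 6.32, 6.64 and 7.0 with vehicle and 7.13, 7.07 and 7.34 with PlaB. RDES levels of RAD54L were 6.58, 6.61 and 6.53 with vehicle and 5.86, 5.79 and 5.72 with PlaB. It rose by 0.53 ± 0.13 in SKNMC and fell by 0.78 ± 0.13 in RDES, where the groups lay far apart. TC32 levels were 7.19, 7.20 and 7.01 with vehicle and 6.95, 6.99 and 6.98 with PlaB. TC71 levels of RAD54L were 6.66, 6.45 and 6.49 with vehicle and 6.46, 6.47 and 6.11 with PlaB. Those changes, -0.16 and -0.18, were not called. Its mean over the lines, -0.15 ± 0.06, was called (adjusted p = 0.042), but leaving out any of 14 single arrays ended the call (adjusted p up to 0.11). BLM, the helicase that dissolves joined recombination intermediates, had SKNMC levels of 6.30, 6.44 and 6.47 with vehicle and 6.83, 7.04 and 6.94 with PlaB. In TC71 BLM read 5.82, 5.83 and 5.69 with vehicle and 5.68, 5.20 and 5.40 with PlaB. SKNMC rose by 0.54 ± 0.13 and TC71 fell, with a change of -0.35 ± 0.13. BLM levels in RDES were 5.65, 5.79 and 5.79 with vehicle and 5.55, 5.43 and 5.29 with PlaB. BLM levels in TC32 were 5.97, 6.05 and 6.49 with vehicle and 6.01, 6.0 and 6.20 with PlaB. RDES fell, with a change of -0.32 ± 0.13, and TC32 was not called (-0.10 ± 0.13).

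Under median centring the SKNMC rises of BARD1, BLM and RAD54L were no longer called (0.34, 0.15 and 0.17), while the SKNMC rise and the RDES fall of EXO1 were called in every setting tried. The TC71 fall of BLM missed the threshold without TC71 PlaB replicate 2 (-0.24, adjusted p = 0.18), without TC71 PlaB replicate 3 and without TC71 vehicle replicates 1 or 2 (adjusted p up to 0.071). The RDES call of BLM, whose adjusted p was 0.048, was lost without background correction (-0.14, adjusted p = 0.089), without any RDES array other than PlaB replicate 1 (-0.36 to -0.25, adjusted p up to 0.18), and without several single arrays of SKNMC and TC71, which enter it through the shared estimate of spread (adjusted p of 0.05 to 0.053). Markers of proliferation were read beside these genes. All 4 were tested, with a summed level of 1100 to 2710 on vehicle arrays and 594 to 2190 on PlaB arrays, in linear normalized intensity. The sum was carried by the brighter probes, those of TOP2A and MCM2, with mean log2 levels of 9.78 and 8.53. The probes of MKI67 and PCNA were dim, at 5.14 and 5.13, so the sum says little about them. TOP2A, a topoisomerase made in S and G2 phase, changed by -0.46 ± 0.11 in SKNMC and -1.21 ± 0.11 in RDES, both called. MKI67, another marker of cycling cells, rose by 0.48 ± 0.10 in SKNMC and was not called in RDES (-0.18 ± 0.10). MCM2 and PCNA were not called in either line. The part of these markers in the recombination results was not tested.

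**Figure D2:**
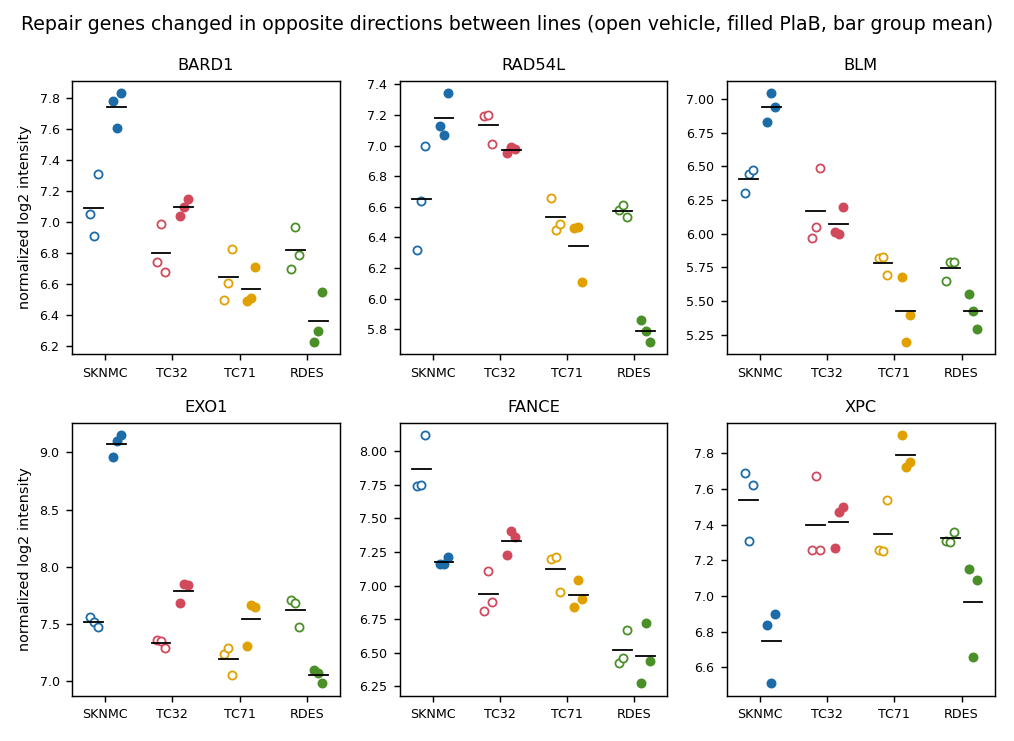
Normalized log2 intensity of the 6 genes called in opposite directions in at least 2 lines, on every array. Open points are vehicle arrays, filled points PlaB arrays and bars group means (n = 3), and each panel has its own vertical axis. BARD1, RAD54L, BLM and EXO1 are higher with PlaB in SKNMC and lower in RDES, FANCE falls in SKNMC and rises in TC32, and XPC falls in SKNMC and rises in TC71.

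In the Fanconi anaemia pathway 3 of the listed genes were tested, and FANCL and FANCG fell in the mean. FANCL, the ubiquitin ligase subunit of the core complex, changed by -1.16 ± 0.06 in the mean (2.24-fold lower, adjusted p = 5.5e-16), the second largest fall of the tested members, but not in every line. SKNMC levels were 6.82, 6.66 and 6.76 with vehicle and 5.05, 4.91 and 4.43 with PlaB. RDES levels of FANCL were 7.12, 7.29 and 7.08 with vehicle and 5.67, 5.75 and 5.73 with PlaB. Both lines lost more than a log2 unit, with changes of -1.95 ± 0.13 and -1.45 ± 0.13. TC71 levels of FANCL were 6.55, 6.30 and 6.30 with vehicle and 5.06, 4.99 and 5.25 with PlaB. TC32 levels of FANCL were 5.81, 6.0 and 6.15 with vehicle and 6.10, 6.07 and 5.86 with PlaB. TC71 fell with a change of -1.28 ± 0.13, while in TC32 the groups overlapped and the change was 0.03 ± 0.13 (adjusted p = 0.91). The TC32 response differed from those of SKNMC, TC71 and RDES by 1.98 ± 0.18, 1.31 ± 0.18 and 1.47 ± 0.18, with adjusted p = 2.9e-09, 8.9e-06 and 2.1e-06. Under median centring the TC32 change of FANCL was -0.35 (adjusted p = 0.048).

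FANCE, which bridges the core complex to its substrate, changed in opposite directions. FANCE levels in SKNMC were 7.74, 7.75 and 8.12 with vehicle and 7.16, 7.16 and 7.21 with PlaB. FANCE levels in TC32 were 6.81, 7.11 and 6.88 with vehicle and 7.23, 7.41 and 7.36 with PlaB. The groups did not overlap in either line, and the changes were -0.69 ± 0.12 and 0.40 ± 0.12. FANCE levels in TC71 were 7.20, 7.21 and 6.95 with vehicle and 6.84, 7.04 and 6.90 with PlaB. In RDES they were 6.42, 6.46 and 6.67 with vehicle and 6.27, 6.72 and 6.44 with PlaB. Neither was called, and the TC32 rise of FANCE missed the threshold without TC32 vehicle replicate 1 (0.34, adjusted p = 0.054) and under median centring (0.02). FANCG, another core subunit, fell in RDES (-0.59 ± 0.12) and was not called in the other lines, where its changes ran from -0.29 to 0.08. FANCC, FANCF and FANCI had probes that were not tested. FANCI, one of the pair of proteins that the core complex marks with ubiquitin, was detected on 7 arrays, all with vehicle, and FANCC and FANCF on 1 array each.

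Of the break-sensing and checkpoint genes, 5 were tested: 4 fell and 1 rose in the mean, where 37.9% and 32.2% of all tested genes did. CHEK1, the kinase downstream of ATR at stalled forks, was the largest rise in the mean of the tested members, 1.02 ± 0.06 (2.03-fold higher, adjusted p = 1.1e-15). CHEK1 levels in SKNMC were 6.59, 6.64 and 6.44 with vehicle and 7.97, 7.86 and 8.08 with PlaB. CHEK1 in TC32 read 7.03, 6.93 and 6.95 with vehicle and 7.86, 7.92 and 7.75 with PlaB. All PlaB arrays of both lines lay above all vehicle arrays. CHEK1 in TC71 read 6.05, 6.15 and 6.51 with vehicle and 7.27, 7.28 and 7.27 with PlaB. In RDES it read 7.66, 7.25 and 7.62 with vehicle and 8.22, 8.29 and 8.33 with PlaB. Groups separated in these lines too, and the changes were 1.42 ± 0.12, 0.87 ± 0.12, 1.04 ± 0.12 and 0.77 ± 0.12 in SKNMC, TC32, TC71 and RDES. ATR itself was not tested, since its 3 probes were detected on at most 3 arrays.

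CHEK2, the checkpoint kinase downstream of ATM, moved the other way. Its levels in SKNMC were 5.59, 5.56 and 5.42 with vehicle and 5.07, 5.10 and 5.27 with PlaB. CHEK2 levels in TC32 were 6.33, 6.59 and 6.73 with vehicle and 5.95, 5.39 and 5.74 with PlaB. The groups did not overlap, and the changes were -0.37 ± 0.15 in SKNMC and -0.86 ± 0.15 in TC32, a difference that was not called (adjusted p = 0.084). CHEK2 in TC71 read 6.55, 6.52 and 6.61 with vehicle and 6.19, 5.98 and 6.26 with PlaB. In RDES CHEK2 read 6.49, 6.22 and 5.75 with vehicle and 5.16, 4.98 and 4.91 with PlaB. The RDES change was the largest, at -1.14 ± 0.15, and the mean of the lines was -0.70 ± 0.07. The SKNMC call of CHEK2 was lost without any one of SKNMC vehicle replicates 1 and 2 and PlaB replicates 1 and 2 (adjusted p up to 0.095), and the TC71 call without TC71 vehicle replicate 3 or PlaB replicate 2 (adjusted p up to 0.11). The mean of the tested CHEK2 probes was not called in TC71 (-0.28, adjusted p = 0.059).

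ATM, the kinase that signals double-strand breaks, changed by -0.60 ± 0.07 in the mean. ATM levels in SKNMC were 6.27, 6.24 and 6.35 with vehicle and 5.92, 5.57 and 5.66 with PlaB. ATM levels in TC32 were 6.89, 6.76 and 6.92 with vehicle and 5.66, 6.08 and 5.59 with PlaB. The TC32 change, -1.08 ± 0.13, was the largest of the 4. ATM levels in TC71 were 6.55, 6.62 and 6.77 with vehicle and 6.20, 6.36 and 6.56 with PlaB. ATM levels in RDES were 6.51, 6.37 and 6.78 with vehicle and 6.04, 6.26 and 5.98 with PlaB. TC71 groups overlapped and were not called (-0.27 ± 0.13), while RDES changed by -0.46 ± 0.13, a call that was lost without RDES vehicle replicate 3 (-0.35, adjusted p = 0.056). A dimmer ATM probe, detected on 10 arrays, was not called in the mean (-0.03).

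NBN, the subunit of the break-sensing complex that recruits ATM, fell in every line, by 0.81 ± 0.08 in the mean. SKNMC levels of NBN were 6.73, 6.42 and 6.38 with vehicle and 5.38, 5.95 and 5.35 with PlaB. NBN levels in TC71 were 7.15, 7.27 and 6.89 with vehicle and 5.71, 5.97 and 6.10 with PlaB. These were its largest changes, -0.95 ± 0.16 and -1.18 ± 0.16. NBN levels in TC32 were 6.53, 6.16 and 6.44 with vehicle and 6.08, 5.64 and 5.82 with PlaB. NBN levels in RDES were 5.85, 5.91 and 5.91 with vehicle and 4.99, 5.42 and 5.49 with PlaB. There the changes were -0.53 ± 0.16 and -0.59 ± 0.16, with no overlap of groups, and the TC32 call was lost without TC32 PlaB replicate 2 (-0.43, adjusted p = 0.053). MRE11, the nuclease of the same complex, changed by -0.27 ± 0.07 in the mean on its brightest probe and was called in TC32 and RDES. These calls were lost without TC32 PlaB replicate 2 (-0.24, adjusted p = 0.2), and without RDES vehicle replicates 1 or 3 or PlaB replicates 2 or 3 (adjusted p up to 0.19). Its other probes gave -0.04 and -0.01, neither called, and the mean of all 3 missed the threshold (-0.11, adjusted p = 0.054). RAD50, the third subunit, was detected on 0 arrays.

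**Figure D3:**
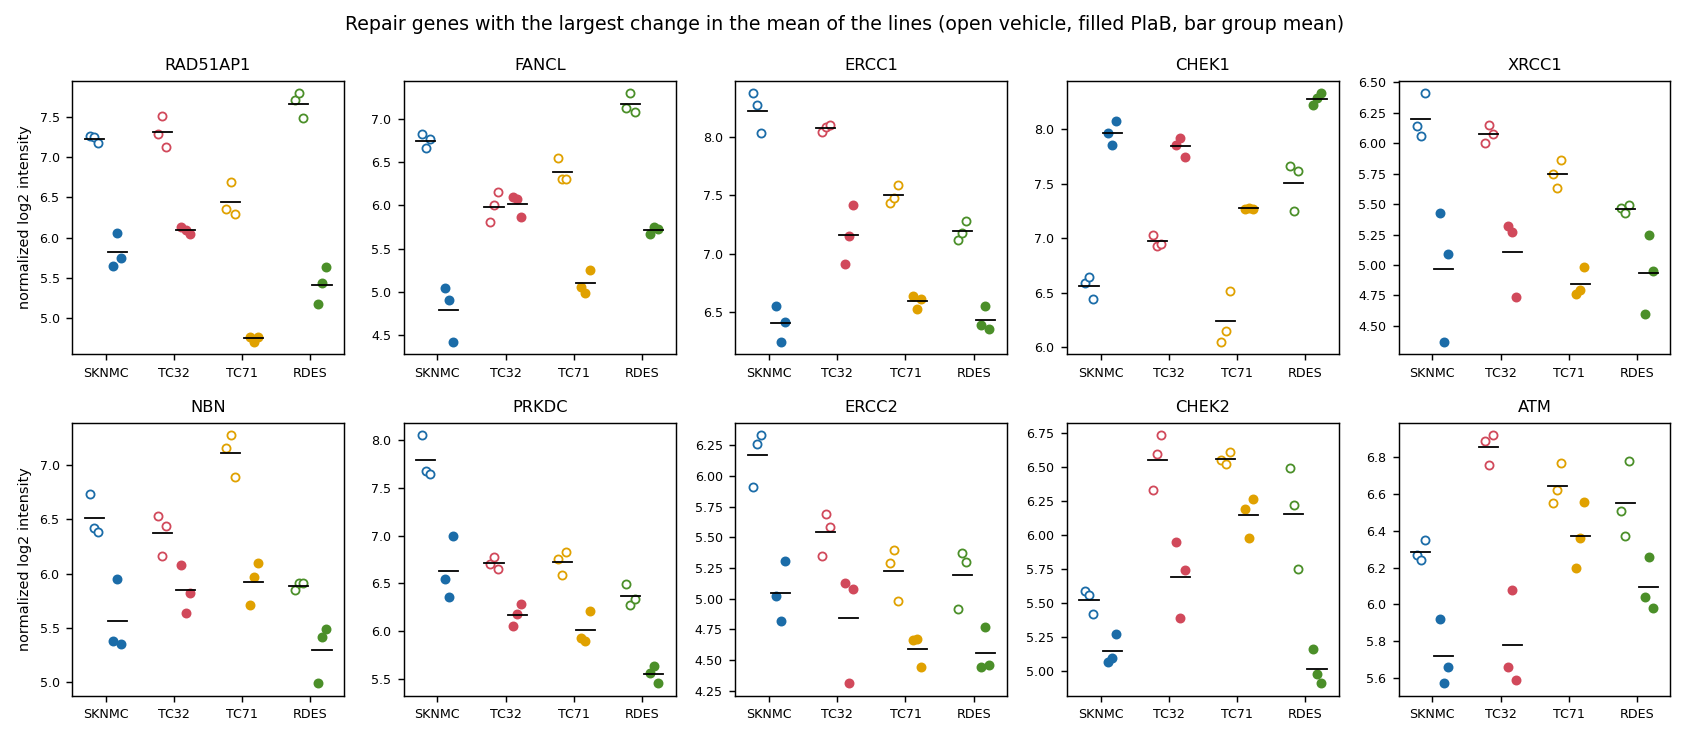
Normalized log2 intensity of the genes with the largest called change in the mean of the lines, on every array. Open points are vehicle arrays, filled points PlaB arrays and bars group means (n = 3), and each panel has its own vertical axis. CHEK1 is higher with PlaB in all 4 lines, the FANCL groups overlap in TC32, and RAD51AP1, ERCC1 and XRCC1 are lower in all 4.

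Among end-joining genes, 4 were tested. PRKDC, the catalytic subunit of DNA-PK, changed by -0.81 ± 0.07 in the mean. PRKDC levels in SKNMC were 8.05, 7.68 and 7.64 with vehicle and 6.54, 6.36 and 7.0 with PlaB. PRKDC levels in TC32 were 6.70, 6.78 and 6.65 with vehicle and 6.05, 6.18 and 6.28 with PlaB. SKNMC showed the largest fall, -1.16 ± 0.13, and TC32 the smallest, -0.54 ± 0.13. PRKDC levels in TC71 were 6.75, 6.59 and 6.83 with vehicle and 5.93, 5.9 and 6.21 with PlaB. PRKDC levels in RDES were 6.49, 6.27 and 6.33 with vehicle and 5.56, 5.63 and 5.45 with PlaB. Groups did not overlap in any line, and the other tested probes also fell in the mean, with -0.49 and -0.48.

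The 2 Ku subunits, which form a ring around a broken end and recruit DNA-PK, did not move alike. XRCC6 (Ku70) rose in all 4 lines, by 0.33 to 0.47, and XRCC5 (Ku80) fell by 0.21 ± 0.07 in the mean, with called falls in SKNMC (-0.38) and TC32 (-0.57). XRCC6 levels in SKNMC were 10.59, 10.34 and 10.43 with vehicle and 10.79, 10.67 and 10.89 with PlaB. XRCC6 levels in TC71 were 10.14, 10.01 and 10.38 with vehicle and 10.49, 10.59 and 10.53 with PlaB. The groups did not overlap, with changes of 0.33 ± 0.12 and 0.36 ± 0.12. XRCC6 levels in RDES were 9.83, 9.74 and 9.59 with vehicle and 10.30, 10.01 and 9.95 with PlaB. XRCC6 levels in TC32 were 10.06, 10.02 and 10.38 with vehicle and 10.56, 10.56 and 10.74 with PlaB. There the changes were 0.37 ± 0.12 and 0.47 ± 0.12, again with no overlap. A dimmer XRCC6 probe in TC32 read 6.54, 6.48 and 6.04 with vehicle and 6.13, 5.61 and 6.22 with PlaB. On that probe TC32 fell (-0.37, adjusted p = 0.046), so the direction of XRCC6 in TC32 depended on the probe, and the mean of both probes was 0.05 and not called. The XRCC6 calls were also lost when single arrays were left out: in SKNMC without vehicle replicate 2 (0.27, adjusted p = 0.098), vehicle replicate 3 (0.32, 0.054) or PlaB replicate 3 (0.28, 0.088), in TC71 without vehicle replicate 2 (0.28, 0.099) or PlaB replicate 2 (0.33, 0.054), and in RDES without vehicle replicate 3 (0.3, 0.081) or PlaB replicate 1 (0.26, 0.12). The SKNMC fall of XRCC5 was lost without SKNMC vehicle replicates 1 or 2 or PlaB replicates 1 or 3 (adjusted p up to 0.1). LIG4, detected on 15 arrays, changed by -0.12 to 0.23 and was not called, and XRCC4, its partner, was detected on 0 arrays.

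Base excision and single-strand break genes gave 4 falls and 1 rise in the mean among 5 tested, beside 37.9% and 32.2% of all tested genes. XRCC1, the scaffold of single-strand break repair, changed by -0.91 ± 0.09 in the mean. XRCC1 levels in SKNMC were 6.14, 6.06 and 6.41 with vehicle and 5.43, 4.37 and 5.09 with PlaB. XRCC1 levels in TC32 were 6.0, 6.15 and 6.08 with vehicle and 5.32, 5.27 and 4.74 with PlaB. The SKNMC PlaB arrays spread widely, and all lay under the vehicle arrays. XRCC1 levels in TC71 were 5.75, 5.63 and 5.86 with vehicle and 4.76, 4.79 and 4.98 with PlaB. XRCC1 levels in RDES were 5.47, 5.43 and 5.49 with vehicle and 4.60, 5.25 and 4.95 with PlaB. The changes were -1.24 ± 0.18, -0.97 ± 0.18, -0.91 ± 0.18 and -0.53 ± 0.18 in SKNMC, TC32, TC71 and RDES, and the RDES call was lost without RDES PlaB replicate 1 (-0.36, adjusted p = 0.16) or vehicle replicates 1 or 3 (adjusted p up to 0.053). LIG3, the ligase that XRCC1 carries, fell in SKNMC, TC32 and RDES, with changes of -0.76, -0.52 and -0.67. In TC71 the brightest LIG3 probe was detected on 3 vehicle arrays and 0 PlaB arrays, which bounds its group mean as at least 1.13-fold lower with PlaB. The groups overlapped, and the change was not called (adjusted p = 0.079). A second LIG3 probe, detected on 3 TC71 PlaB arrays, was not called in the mean (-0.05) or in TC71 (-0.09), so no fall of the gene in TC71 was shown. PARP1 and PARP2, which sense strand breaks and make poly(ADP-ribose), changed by -0.47 ± 0.05 and -0.43 ± 0.07 in the mean. PARP1 fell in SKNMC (-0.67) and RDES (-0.82), and PARP2 in TC32 (-0.49) and TC71 (-0.81). PARP1 missed the threshold in TC71 (-0.25, adjusted p = 0.06), where 4 of the 6 background and scaling settings called it, and median centring called falls of both genes in all 4 lines. A second, dimmer PARP2 probe, detected on 23 arrays, was not called in the mean (-0.05) or in any line, with -0.25 in TC32 and -0.04 in TC71. UNG, the uracil glycosylase, rose on its brightest probe in SKNMC and TC32 (0.44 and 0.46) and was not called in TC71 and RDES. Its rise in the mean, 0.15 ± 0.07, turned sign under median centring (-0.04). Its line calls were lost without SKNMC PlaB replicates 1 or 3 (adjusted p up to 0.065) and without TC32 vehicle replicate 3 (0.32, adjusted p = 0.075), and the call in the mean, at an adjusted p of 0.047, without any of 16 single arrays (0.12 to 0.16, adjusted p up to 0.11). Dimmer UNG probes gave other calls. A probe detected on 20 arrays rose in RDES (0.36, adjusted p = 0.033) and in the mean (0.17). Another, detected on 9 arrays, fell in TC71 (-0.42, adjusted p = 0.0025) and was not called in the mean (-0.10). Neither was called in SKNMC (-0.06 and 0.00) or TC32 (0.20 and 0.08), and the mean of the UNG probes was not called in SKNMC (0.13, adjusted p = 0.27).

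For mismatch repair, 2 genes were tested. MSH6, which recognises single mismatches as part of a dimer, rose in SKNMC (0.44 ± 0.15) and was not called in the other lines, where it read -0.34 to -0.20. The SKNMC call was lost without SKNMC vehicle replicate 1 (0.26, adjusted p = 0.19), PlaB replicate 2 (0.4, 0.056) or PlaB replicate 3 (0.39, 0.062). PMS2, the endonuclease subunit, rose by 0.21 ± 0.06 in the mean on its brightest probe. RDES levels of PMS2 were 5.18, 4.67 and 4.94 with vehicle and 5.52, 5.68 and 5.41 with PlaB. PMS2 levels in TC71 were 5.01, 5.19 and 5.08 with vehicle and 5.41, 5.55 and 5.22 with PlaB. Groups did not overlap in these lines, with changes of 0.60 ± 0.12 and 0.30 ± 0.12. PMS2 levels in SKNMC were 4.75, 4.77 and 4.49 with vehicle and 4.67, 4.75 and 4.65 with PlaB. PMS2 levels in TC32 were 5.22, 5.11 and 5.32 with vehicle and 5.23, 5.15 and 4.99 with PlaB. Neither was called. On its dimmer probe, detected on 10 arrays, PMS2 in RDES read 4.46, 4.48 and 4.39 with vehicle and 4.21, 4.20 and 4.25 with PlaB. The same probe in TC71 read 4.47, 4.51 and 4.51 with vehicle and 4.29, 4.48 and 4.27 with PlaB. It fell in the mean (-0.13, adjusted p = 0.019), against the direction of the brighter probe. The same probe in SKNMC read 4.28, 4.44 and 4.16 with vehicle and 4.28, 4.23 and 4.19 with PlaB. In TC32 this probe read 4.56, 4.41 and 4.34 with vehicle and 4.27, 4.43 and 4.28 with PlaB. The TC71 call of the brighter probe, at an adjusted p of 0.046, was lost in 14 alternatives, among them without TC71 PlaB replicate 2 (0.22, adjusted p = 0.21). No line was called on the dimmer probe, the mean of both probes was 0.04 and not called, and median centring turned the sign of the brighter probe (-0.0031). PMS2 has near-identical pseudogene copies, so its probes may also read their transcripts.

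In nucleotide excision repair, 3 of the 4 tested genes fell in the mean and none rose, beside 37.9% and 32.2% of all tested genes. ERCC1, which cuts the damaged strand together with its partner XPF, changed by -1.10 ± 0.06 in the mean (2.14-fold lower, adjusted p = 2.2e-16). ERCC1 levels in SKNMC were 8.37, 8.27 and 8.03 with vehicle and 6.55, 6.25 and 6.42 with PlaB. ERCC1 levels in TC32 were 8.04, 8.08 and 8.10 with vehicle and 6.91, 7.15 and 7.42 with PlaB. The SKNMC fall, -1.82 ± 0.12, was larger than that of TC32, -0.91 ± 0.12, with a difference of -0.90 ± 0.17 (adjusted p = 0.00014). ERCC1 levels in TC71 were 7.43, 7.48 and 7.59 with vehicle and 6.64, 6.53 and 6.61 with PlaB. ERCC1 levels in RDES were 7.12, 7.18 and 7.28 with vehicle and 6.39, 6.55 and 6.36 with PlaB. Groups did not overlap in any line, and its other tested probes gave -1.07 and -0.80 in the mean, both called.

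ERCC2, a helicase of the TFIIH complex, changed by -0.78 ± 0.09 in the mean. SKNMC levels of ERCC2 were 5.91, 6.26 and 6.33 with vehicle and 5.02, 4.82 and 5.31 with PlaB. ERCC2 levels in TC32 were 5.35, 5.69 and 5.58 with vehicle and 5.13, 4.31 and 5.08 with PlaB. The largest change was that of SKNMC, -1.12 ± 0.17. ERCC2 levels in TC71 were 5.29, 5.40 and 4.98 with vehicle and 4.66, 4.67 and 4.44 with PlaB. ERCC2 levels in RDES were 4.92, 5.37 and 5.30 with vehicle and 4.44, 4.77 and 4.46 with PlaB. The other lines changed by -0.71, -0.64 and -0.64, with no overlap of groups, and the F-test did not call a difference between lines (adjusted p = 0.27).

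XPC, the protein that first detects helix-distorting lesions, changed in both directions. XPC levels in SKNMC were 7.69, 7.31 and 7.62 with vehicle and 6.84, 6.51 and 6.90 with PlaB. XPC levels in TC71 were 7.26, 7.25 and 7.54 with vehicle and 7.90, 7.72 and 7.75 with PlaB. SKNMC fell and TC71 rose with no overlap, and the changes were -0.79 ± 0.14 and 0.44 ± 0.14. XPC levels in RDES were 7.31, 7.30 and 7.36 with vehicle and 7.15, 6.66 and 7.09 with PlaB. XPC levels in TC32 were 7.26, 7.67 and 7.26 with vehicle and 7.27, 7.47 and 7.50 with PlaB. RDES fell (-0.36 ± 0.14) and TC32 was not called (0.02). Its mean of the lines was -0.17 ± 0.07, called at an adjusted p of 0.028 and lost without any of 6 single arrays (adjusted p up to 0.074). The RDES fall was lost without RDES PlaB replicate 2 (-0.21, adjusted p = 0.29) or any 1 RDES vehicle array (adjusted p up to 0.095), and the TC71 rise without TC71 PlaB replicate 1 (0.38, adjusted p = 0.051) and under median centring (0.26, adjusted p = 0.24). XPA, which verifies the lesion, was called in RDES alone (0.43 ± 0.13) and not without RDES vehicle replicate 1 (0.33, adjusted p = 0.074). DDB2, a sensor of ultraviolet lesions, was detected on 0 arrays.

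Between lines, the response of 23 of the 33 genes differed by the F-test, beside 47.1% of all tested genes. Opposite calls in at least 2 lines were found for 6 of them, beside 5.23% of all tested genes. Pairs that included SKNMC gave more differing members, 13 against TC32, 14 against TC71 and 16 against RDES, where 30.3%, 26.3% and 26.7% of all tested genes differed. TC32 and TC71 differed in 8 members (18.5% of all tested genes), TC32 and RDES in 9 (13.2%) and TC71 and RDES in 6 (12.2%). In homologous recombination SKNMC had 5 called rises and RDES had 0, and the called falls numbered 4 in SKNMC and 7 in RDES, where 26.3% and 21.4% of all tested genes rose and 31.3% and 22.5% fell. Median centring left 1 of the SKNMC rises, that of EXO1, with 5 falls in SKNMC and 8 in RDES, and shares of all genes were not counted for it. Among genes whose response was not called different between lines, XRCC6 had the narrowest range on its brightest probe, from 0.33 to 0.47 (F-test adjusted p = 0.89). Its dimmer probe ran from -0.37 in TC32 to 0.34 in TC71.

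Where a gene had several tested probes, the size of the change depended on the probe. This held for 13 genes with 2 or 3 tested probes, and the annotation used does not say which transcript each probe reads. RAD51C had the widest gap. Its brightest probe changed by -0.45 ± 0.06 in the mean, the next by -0.87 ± 0.06 and the dimmest by -1.65 ± 0.05, all called. The dimmest of these RAD51C probes fell in all 4 lines, with changes of -2.13 in SKNMC, -1.28 in TC32, -1.96 in TC71 and -1.23 in RDES, while the brightest was not called in RDES (-0.18). The difference between the probes was not tested. RAD51C also had a higher vehicle level in TC71, 9.11 ± 0.10 (SD, n = 3), than in the other lines, which lay between 7.16 and 7.47 on the same probe. All tested probes of BRCA1, CHEK2, PRKDC and ERCC1 fell in the mean, and both of EXO1 rose.

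**Figure D4:**
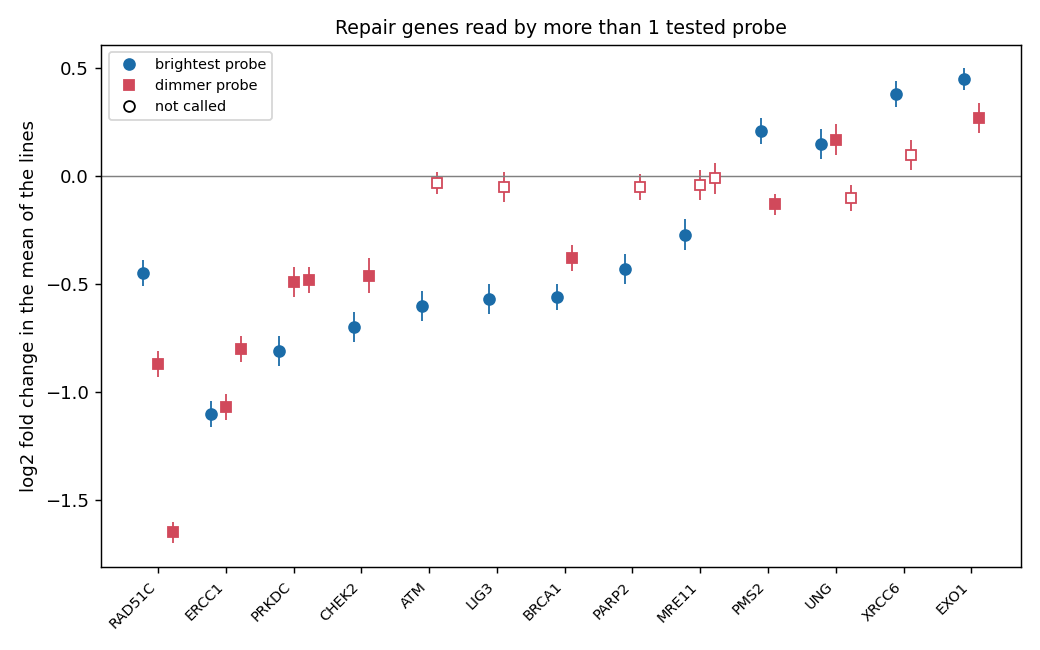
Change in the mean of the 4 lines for every tested probe of the 13 genes with more than 1 tested probe. The vertical axis is the log2 fold change of PlaB over vehicle with bars for the SE, and genes are named along the horizontal axis. Filled points are called changes and open points changes not called. The RAD51C probes run from -1.65 to -0.45, ERCC1 and PRKDC probes lie together below 0, and PMS2 has called probes on both sides of 0.

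Other repair genes, a list of 132 of which 101 were tested, fell and rose in shares of 45.5% and 26.7% in the mean (46 and 27 genes). The shares of all tested genes were 37.9% and 32.2%, and the medians were -0.10 and -0.03. By line 38 fell and 27 rose in SKNMC (37.6% and 26.7%, beside 31.3% and 26.3% of all tested genes). In TC32 35 fell and 20 rose (34.7% and 19.8%, beside 23.8% and 21.6%). TC71 gave 33 and 18 (32.7% and 17.8%, beside 25.2% and 22.9%), and RDES 37 and 19 (36.6% and 18.8%, beside 22.5% and 21.4%). The shares of rises were thus near or under those of all genes. Called falls in all 4 lines numbered 19, and called rises 9, beside 10.1% and 10.0% of all tested genes. The largest falls in the mean were those of RMI2, a partner of BLM, at -1.73 ± 0.07, FAAP100 and CENPS, both associated with the Fanconi core complex, at -1.60 ± 0.06 and -1.52 ± 0.06, and BABAM2, a subunit of the BRCA1-A complex, at -1.45 ± 0.06. BLM itself was not called in the mean (-0.06 ± 0.06). The largest rises were those of CDK7, the kinase of TFIIH, at 1.14 ± 0.06, the demethylases ALKBH3 and ALKBH2, at 0.91 ± 0.06 and 0.83 ± 0.06, and POLB, the polymerase of base excision repair, at 0.85 ± 0.05. POLB and XRCC1, which bind each other, thus changed in opposite directions in the mean, as did CDK7 and ERCC2 of TFIIH.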

How the data were processed

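Total RNA of 4 Ewing sarcoma lines was hybridised to Illumina beadchips. The deposited table holds 1 probe intensity per array, per the file headers, from 56.3 to 8894.51 and neither normalized nor background-subtracted, with a detection p-value beside each, also per the file headers. The deposited series matrix holds log2 values. They matched the intensities for 99.996% of probes in TC32 but for 36.4% to 75.2% in the other lines, at a tolerance of 0.03, so it served only as a TC32 alternative. GenomeStudio, lumi and R 3.0.2 are named in the submitters' processing notes.

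Intensities were processed in R 4.3.3 with limma 3.58.1: background from detection p-values, offset 16, quantile normalization, which understates changes of dim probes. Probes with detection p under 0.05 on all 3 arrays of at least 1 group were kept (17557 of 47323). Of the probes on the chip 30112 had 1 gene symbol, 8 several and 17203 none. Repair genes had 74 probes, of which 51 were tested. A group-means model over 24 arrays gave moderated tests for each line, for the mean of the lines and for differences between lines, adjusted by Benjamini-Hochberg over all tested probes. The fit was tested on simulated data. Arrays of a group correlated at 0.987 to 0.994, and the number of arrays limits the precision. The sources used here do not give chip positions.

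The members and lists were chosen with earlier results of these data known. Values on every array are given for the 10 genes with the largest called change in the mean, for genes called in opposite directions between lines and for genes whose probes disagree in called direction. Of the other repair genes, the 4 largest called rises and falls are named among those detected in both groups of every line. Alternatives covered background, offset, scaling, filters, probe choice, single lines, single arrays, the replicate block and the series matrix.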

Additional observations from a re-analysis of the deposited data

Results flagged for a closer look

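The response to PlaB differed between lines for 23 of the 33 tested repair genes, by limma's moderated F-test with its Benjamini-Hochberg adjusted p given after each gene. The same test called 47.1% of all tested genes. In homologous recombination these were BARD1 (5.7e-05), RAD51C (0.02), RAD51AP1 (0.00025), RAD54L (2e-05), XRCC2 (0.012), XRCC3 (0.025), BLM (0.00057) and EXO1 (2.4e-10). The lowest of these p-values was that of EXO1, whose change ran from -0.57 in RDES to 1.55 in SKNMC, and the range of RAD54L was 1.32 on the log2 scale.

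In the Fanconi anaemia pathway the responses of FANCE (0.00012), FANCG (0.015) and FANCL (1.2e-08) differed. FANCL spanned 1.98 on the log2 scale, between -1.95 in SKNMC and 0.03 in TC32. Among break-sensing genes the test called ATM (0.0049), CHEK1 (0.01), CHEK2 (0.0081) and NBN (0.048), all of which moved one way in their called lines and differed in size. In the excision, mismatch and end-joining groups it called XRCC5 (0.0073), PARP1 (0.0015), PARP2 (0.027), UNG (0.0066), MSH6 (0.014), PMS2 (0.0063), ERCC1 (2.5e-05) and XPC (7.4e-05). PARP1 was called lower in SKNMC and RDES, and UNG higher in SKNMC and TC32. No explanation of these differences was tested.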

How the results depend on the processing

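Under the alternatives, 1 of them chosen after seeing the data (without the array of each line with fewest probes detected), 165 changes of members were followed, 117 of them called. Of the called ones, 77 kept call and direction in every alternative and 40 lost the call in at least 1. In the mean of the lines 21 of 27 calls were kept, and MRE11, PMS2, RAD54L, UNG, XPC and XRCC2 lost theirs in at least 1. Median centring moved most: it gave 2 rises in SKNMC, 1 in TC32, 2 in TC71 and 3 in the mean, 24 falls in TC32 and 22 in TC71, 1 gene higher and 16 lower in all 4 lines, and turned the sign of XRCC2 (-0.03), UNG (-0.04) and PMS2 (-0.0031) in the mean and of FANCL in TC32 (-0.35). It shifts all genes, as given above, and the share of all tested genes called under it was not counted. Detection p under 0.01 on all arrays gave 2 rises in RDES, with 25 members left. The mean of a gene's tested probes, and leaving out the array of each line with fewest probes detected, each gave 1 gene higher in all 4 lines. Leaving out 1 array at a time gave 1 to 2 genes higher and 6 to 9 lower in all 4 lines, 3 to 6 rises in TC71 (3 without TC71 PlaB replicate 2), and 21 to 24 genes whose response differed. With the replicate block 162 of 165 changes kept their call, 1 was lost and 2 were gained. Deviations of same-numbered samples correlated weakly (-0.041 to 0.054 over 12 pairs, 6 of which correlated best with their own number). The labels do not say what the numbers share, so whether they pair the samples was not settled. Fitting each line alone gives no mean or F-test, and the series matrix was used for TC32 only. The cause of these shifts was not tested. Genes near background, such as LIG4 and XPA, are limited by signal.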

Other observations

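The following genes of the wider repair list were chosen after their values were seen, and each was read from its brightest tested probe. Subunits of TFIIH, the helicase and kinase complex shared by nucleotide excision repair and transcription, did not change together. ERCC3, its second helicase, rose in all 4 lines (0.65 ± 0.06 in the mean; under median centring called in TC71 and in the mean alone), as did CDK7, while CCNH, the cyclin partner of CDK7, fell in all 4 (-0.77 ± 0.06). GTF2H3, GTF2H4 and GTF2H5, its smaller subunits, changed by -0.63 ± 0.07, -0.27 ± 0.06 and -0.38 ± 0.05 in the mean, all called. None of these 3 was called lower in every line. GTF2H3 was not called in RDES (-0.21), GTF2H4 in TC32 (-0.20) and TC71 (-0.10), and GTF2H5 in TC32 (-0.13) and RDES (-0.07). The responses of GTF2H3 and GTF2H5 differed between lines (F-test adjusted p = 0.007 and 1.7e-05). Among the subunits of replication protein A, which coats single-stranded DNA, RPA3 and RPA1 fell (-1.21 ± 0.06 and -0.60 ± 0.06 in the mean). RPA2 differed between lines (F-test adjusted p = 0.00051): it fell in SKNMC (-0.29), as did RPA1 (-0.88) and RPA3 (-1.65) there, and rose in TC32 (0.53) and RDES (0.31). Its mean, 0.16 ± 0.05, read -0.01 under median centring, where its mean and the TC32 and RDES changes (0.16 and 0.22) were not called.

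DNA glycosylases of base excision repair differed too. OGG1, which removes oxidised guanine, changed by -1.38 ± 0.07, and SMUG1 and NTHL1 by -1.14 ± 0.07 and -0.77 ± 0.06, while MBD4 rose by 0.78 ± 0.06, all in the mean. POLQ, the polymerase of microhomology-mediated end joining, rose by 1.80 ± 0.14 in SKNMC and was not called in RDES (-0.01 ± 0.14). H2AX, the histone that marks breaks, rose by 1.31 ± 0.11 in SKNMC and changed by -0.61 ± 0.11 in TC32 and -0.77 ± 0.11 in RDES, and its response differed between lines (F-test adjusted p = 7.1e-11).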
